A study of Mus musculus with 12 samples.

Results

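The peaks described here are those in which the best match to the seed of miR-451a carried a single mismatch at microRNA position 2, 3 or 4 and which held no match to miR-144-3p. They came from a map of Argonaute-bound RNA in mouse fetal liver, and they were chosen by the authors' match code for each peak, not by read counts. The rule gave 1605 of 106382 peaks, of which 395 had the mismatch at position 2, 491 at position 3 and 719 at position 4.

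The map was made by HITS-CLIP, in which RNA is cross-linked to a protein, recovered with an antibody and sequenced. Fetal livers of C57BL/6J mice that were wild type (WT) or knockout (KO) for the shared locus of miR-144 and miR-451a were used, with an antibody to Argonaute (Ago) or with control IgG. There were 3 libraries in each of 4 groups, here called by the number in their labels. Ago libraries 1, 9 and 10 are WT and 3, 12 and 13 are KO; with IgG, 2, 6 and 11 are WT and 4, 8 and 14 are KO. The knockout covers both microRNAs of the locus, so no group lacks miR-451a alone. No source used here gives the age of the fetuses. The labels state 3 replicates per genotype; where libraries were not made from separate animals, the p-values measure only the spread between these libraries.

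Argonaute proteins carry microRNAs to messenger RNAs, and the bases of the microRNA near its 5′ end, the seed, pair first with the target. miR-451a is the best-known microRNA made without Dicer: its short hairpin is cut by Ago2 itself. It is abundant in red cell precursors, which make up much of the fetal liver, and mice without the locus have a mild anaemia with poor tolerance of oxidative stress. A mismatch inside the seed usually weakens a site, and the interest of these peaks is which mismatch positions still go with a loss of Argonaute reads when the microRNA is absent.

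The mature microRNA (RefSeq, GRCm38.p6, chromosome 11, 78073186 to 78073207, plus strand) is shown to define the positions, counted from 1 at its 5′ end, with seed positions 2 to 8 in capitals.
miR-451a: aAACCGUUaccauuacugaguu
The 6-base site that pairs with positions 7 to 2 reads as follows, with its first base opposite position 7 and its last opposite position 2, and the 3 patterns after it have the mismatch at positions 2, 3 and 4, where N is any base but the pairing one.
6-mer site: ACGGTT
mismatch at 2: ACGGTN
mismatch at 3: ACGGNT
mismatch at 4: ACGNTT
All 3 patterns keep the ACG that faces positions 7 to 5, and with it a CG pair of bases. Among 32851 RefSeq promoter windows of equal length, read on the gene's strand, 6.19% held the pattern for position 2, 6.49% that for position 3 and 5.54% that for position 4, against 1.85% for the full 6-mer. On either strand the shares were 11.4%, 12.7% and 10.7%, against 3.63%.

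In 6 of the peaks the whole peak lay inside one of these RefSeq windows, which allowed the coded match to be read from sequence. They show the coded match as it reads in the genome, and whether the bound RNA held every base of it was not tested. Capitals mark the 6 bases opposite positions 7 to 2.
Clk3, position 2: agcctgggagACGGTGagtgtg
Fkbp11, position 2: catacactacACGGTGaggggcttgg
Rps19, position 2: cggaggccgcACGGTGagtgagggct
Sun1, position 2: atggtctgagACGGTGaacatggact
Arhgdib, position 3: tgctgctcagACGGCTgatcggaaga
Cdc42bpa, position 4: gaaattggagACGCTTccgttaagtg
With the base of the full site first, then the microRNA position, then the base found, the substitution was T2G at all 4 position 2 sites, T3C in Arhgdib and G4C in Cdc42bpa. All 4 position 2 sites had an A opposite position 1, which neither of the others had, and none of the 6 paired with position 8. In Clk3, Fkbp11 and Rps19 the last 3 bases of the site lay past the end of the peak as the authors bounded it, and in Clk3 and Rps19 also past the wider of the authors' bounds. In these 3 peaks the mismatched base and the A after it were thus read from the genome outside the peak. There the T2G and the A cannot be taken as traits of the bound RNA. The reads of these 6 peaks were few. Rps19, a ribosomal protein gene, had 19 reads in the WT Ago libraries and 4 in the KO Ago libraries. Fkbp11 had 17 and 15, Arhgdib 12 and 5, Cdc42bpa 7 and 3, Sun1 6 and 2, and Clk3 3 and 7. None had enough reads to be tested.

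The 1605 peaks had a median width of 31 nt (27 nt for all peaks) and a range of 16 to 180 nt. By the authors' annotation 48.7% lay in coding sequence (CDS), against 33.7% of all peaks. The CDS share was 52.7% at position 2, 51.9% at position 3 and 44.2% at position 4. Sites in 3′ untranslated regions (3′UTR) were 27.2%, against 28% of all peaks, and intergenic peaks 9.16%, against 20.9%. The peaks carried 1229 gene names, of which 1175 matched a RefSeq symbol and 46 a synonym, and 147 peaks had no gene. Of the other microRNAs that the authors coded, miR-144-5p had some match in 11.6% of these peaks (10.6% of all peaks), and miR-16, an abundant microRNA of another locus, had a match of 7 bases or more in 2.68% (4.04% of all peaks).

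The reads in peaks numbered 147969 to 452157 per Ago library and 24622 to 42916 per IgG library. Erythroid marker genes took 0.777% to 0.884% of the peak reads in WT Ago libraries and 0.512% to 0.601% in KO Ago libraries, without overlap. Of their 10 genes, Hba-a1, Hbb-bs, Epb42 and Ahsp were listed in no peak, and Slc4a1, Alas2, Tfrc, Klf1 and Gata1 were among those that carried reads. Hepatocyte markers, with all 11 genes present, took 0.621% to 1.87% in WT Ago and 1.16% to 2.30% in KO Ago libraries, which overlapped. In these whole-liver samples fewer cells of a type and less bound RNA per cell cannot be told apart, and the part of the marker shares in the results below was not tested.

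The 3 mismatch positions held different shares of each library's peak reads, as the plot of read shares shows. At position 4, WT Ago libraries 1, 9 and 10 had 0.856%, 0.900% and 0.755%, against 0.661%, 0.719% and 0.667% for KO Ago libraries 3, 12 and 13. Every KO library was below every WT library. At position 2 it was 0.441%, 0.426% and 0.440% in WT and 0.381%, 0.360% and 0.356% in KO, again without overlap. At position 3 it was 0.499%, 0.491% and 0.463% in WT and 0.452%, 0.481% and 0.472% in KO, and the groups overlapped. Over all peaks of the 3 positions the share was 1.76% ± 0.0862 (SD, n = 3) in WT Ago and 1.52% ± 0.0381 (SD, n = 3) in KO Ago. For a mismatch at position 7 the shares were 1.65% ± 0.161 (SD, n = 3) and 0.573% ± 0.00798 (SD, n = 3), and for a full 6-mer or longer match 1.44% ± 0.175 (SD, n = 3) and 0.221% ± 0.0130 (SD, n = 3). Peaks with no code for any microRNA of the locus took 53.1% ± 2.01 (SD, n = 3) in WT Ago and 60.9% ± 0.444 (SD, n = 3) in KO Ago. The overlapping shares at position 3 thus stand beside a higher share of uncoded peaks in KO. In the IgG libraries the position 2 shares were higher than in every Ago library: 0.524%, 0.771% and 0.554% in WT and 0.958%, 1.32% and 0.508% in KO. A single intronic peak, that of Cdk8, held 369 of the 670 WT IgG reads and 567 of the 917 KO IgG reads at position 2. Without it the Ago shares at position 2 were 0.418%, 0.407% and 0.394% in WT and 0.323%, 0.328% and 0.303% in KO, which still did not overlap. The IgG shares without it were 0.298%, 0.283% and 0.262% in WT, below every WT Ago library, and 0.373%, 0.409% and 0.292% in KO, on both sides of the KO Ago libraries.

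**Figure D1:**
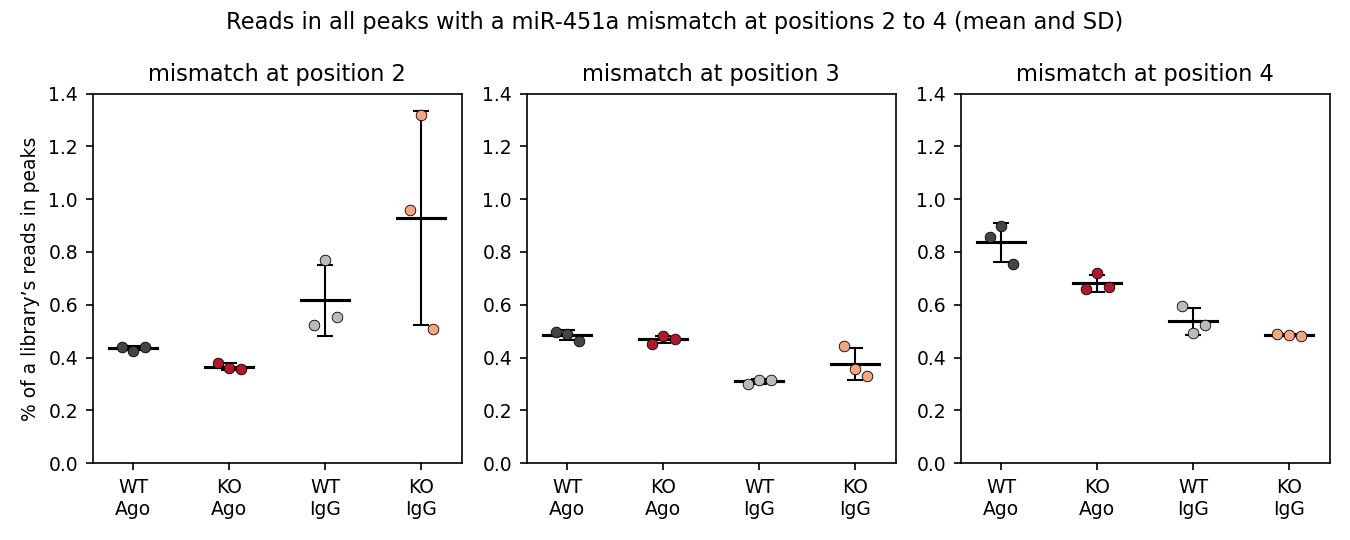
Share of each library's peak reads (percent, vertical axis) in the peaks with a miR-451a mismatch at position 2, 3 or 4, for WT Ago, KO Ago, WT IgG and KO IgG; points are libraries, lines are means and bars are SD (n = 3). KO Ago libraries lie below all WT Ago libraries at positions 2 and 4 and overlap them at position 3, and the IgG libraries reach 1.32% at position 2.

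Peak by peak, WT and KO Ago libraries were compared with edgeR on the peaks that had enough reads, and adjusted p-values under 0.05 over all 2425 tested peaks were called. Of the 1605 peaks 46 were tested, in 42 genes, with 46 to 551 Ago reads each; the 1559 untested ones had 4 to 89. In KO, 8 of the 46 were lower (17.4%), none was higher and 38 were not called. The background was 17.6% of all tested peaks lower and 1.4% higher, so the share of lower peaks was that of tested peaks in general. At unadjusted p under 0.05, 10 were lower and 2 higher, against 20.9% and 5.57% of all tested peaks. The median log2 change, KO minus WT, was -0.23, against 0.09 for all tested peaks. Both DESeq2 and limma-voom also called 8 lower and none higher. The count moved with the libraries used and with the number of peaks tested. It was 5 of 36 without WT library 9 and 18 of 86 without WT library 10. It was 23 of 91 without KO library 3 and 19 of 90 without KO library 13. Over all tested peaks the lower calls were then 332 of 2216, 802 of 4780, 986 of 4836 and 904 of 4976. At position 4 they were 4 of 19, 13 of 49, 17 of 56 and 13 of 55. Without regard to a test, all KO libraries were below all WT libraries in 11 of the 46 (22.3% of all tested peaks) and above them in 5 (10.1%).

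The positions differed. At position 4, 7 of 25 tested peaks were lower (28%) and the median log2 change was -0.73. At position 3, none of 14 was called in either direction by edgeR, DESeq2 or limma-voom, with 1 lower and 1 higher at unadjusted p under 0.05, and the median was 0.08. At position 2, 1 of 7 was lower and the median was 0.47. The difference between positions was not itself tested, and the order of positions 2 and 4 changed with the read filter. Without a filter 5.32% of the position 2 peaks and 4.17% of the position 4 peaks were lower. By the same counts, 23 of 46 tested peaks with a mismatch at position 5 were lower (median log2 -1.15), 26 of 75 at position 6 (-0.63), 29 of 41 at position 7 (-2.69) and 49 of 53 with a 6-mer or longer match (-3.44). Peaks with no code for any microRNA of the locus were lower in 76 of 1210 (6.28%), with a median of 0.21. The sign of the medians at positions 2 and 3 rested on the libraries and the filter. At position 2 the median was -0.08 without WT library 10, -0.16 without KO library 3 and -0.62 without a read filter, and at position 3 it was -0.07 without KO library 3, -0.19 without KO library 12, -0.06 without KO library 13 and -0.25 without a filter. It was within 0.01 of 0 at position 3 with limma-voom and without WT library 9. At position 4 it was negative under every alternative run, from -0.90 to -0.49.

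**Figure D2:**
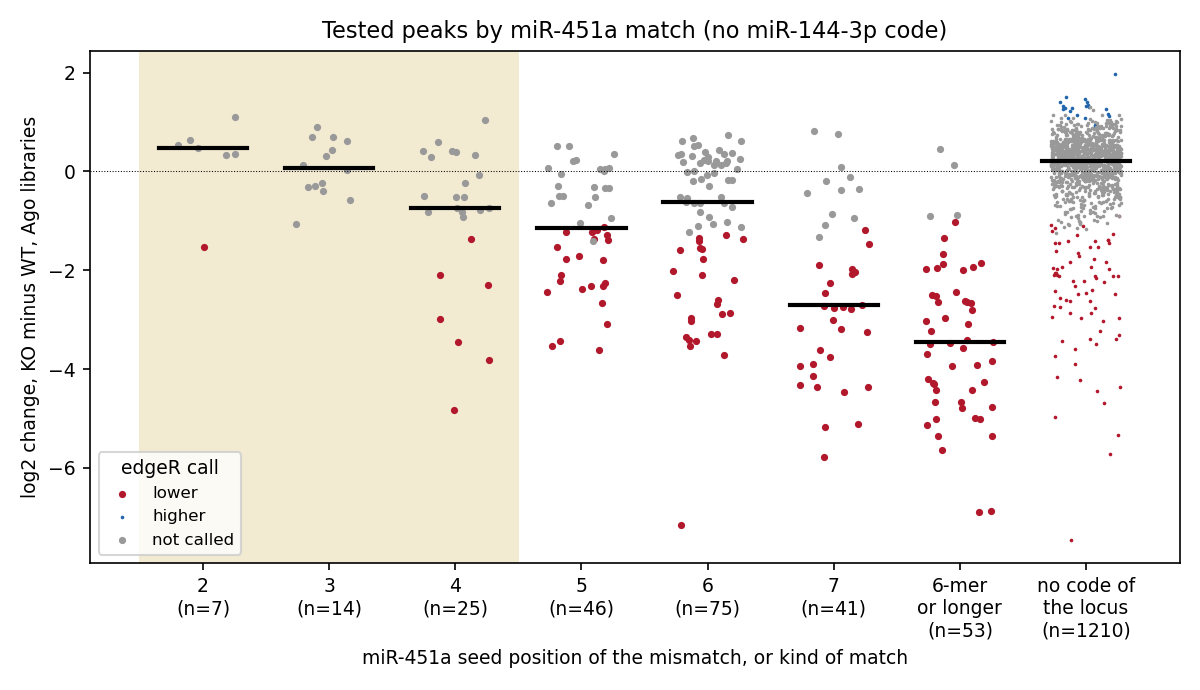
Log2 change in Ago reads, KO minus WT (vertical axis), of every tested peak without a miR-144-3p code, by the miR-451a position of the mismatch or the kind of match; each point is a peak, black lines are medians, and colours give the edgeR call. The shaded positions 2, 3 and 4 hold 8 lower peaks, 7 of them at position 4, and no higher ones.

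The 8 lower peaks lay in 8 genes: Ncoa4, Sdhc, Med13l, Prc1, Agfg1, Tspan8 and Pcna at position 4 and Slc4a1 at position 2. All 7 at position 4 and the 1 at position 2 had every KO Ago library below every WT Ago library. They were called on the same libraries, so this adds no evidence of its own. A peak could pass the read filter through its WT libraries alone, as Ncoa4 did with 0, 1 and 0 KO reads. Without WT library 1 the filter left Ncoa4, Sdhc, Prc1 and Tspan8 untested, and without WT library 9 or KO library 12 it left Ncoa4, Prc1 and Tspan8 untested. In the other alternatives in which they were tested, these 4 peaks were called. Levels are counts scaled to TMM-adjusted library size (CPM, the usual edgeR unit).

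The strongest fall was in the 3′UTR of Ncoa4, the receptor that delivers ferritin to autophagy (position 4, mm10 chromosome 14, 32179265 to 32179301, plus strand). Its level was 341, 351 and 296 CPM in WT libraries 1, 9 and 10, and 0, 19.0 and 0 CPM in KO libraries 3, 12 and 13. A single KO library held the only KO read. The log2 change was -4.83 ± 0.68 (SE) with an adjusted p of 0.000137, and no IgG library had a read there. The 6 other tested peaks of Ncoa4 were not called and had a median log2 change of 0.02.

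The 3′UTR peak of Sdhc, a membrane subunit of succinate dehydrogenase, followed (position 4, chromosome 1, 171129177 to 171129200, minus strand). It stood at 463, 335 and 460.2 CPM in WT and at 29.7, 37.9 and 0 CPM in KO. This was a log2 change of -3.81 ± 0.57 (SE), adjusted p 0.000181. The other tested peak of the gene had a log2 change of 0.53 and was not called.

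An intronic peak of Med13l, a subunit of the Mediator kinase module, fell by a similar factor (position 4, chromosome 5, 118764204 to 118764227, plus strand). WT libraries had 414, 607 and 493 CPM, and KO libraries 59.4, 56.9 and 0 CPM. On the log2 scale it fell by 3.45 ± 0.52 (SE), adjusted p 0.000181. The other tested peak of Med13l had a log2 change of 0.42 and was not called.

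The intronic peak of Prc1, which bundles microtubules of the spindle midzone for cytokinesis, lay on chromosome 7, 80315628 to 80315655, plus strand (position 4). It had 292, 447 and 329 CPM in WT and 0, 94.8 and 0 CPM in KO, so library 12 alone held KO reads. The log2 change was -2.99 ± 0.64 (SE) with an adjusted p of 0.00247. Of the 4 other tested peaks of Prc1, 2 were also lower, both with a code of the locus.

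The 3′UTR peak of Agfg1, a clathrin adaptor-binding protein of vesicle traffic, had the highest mean WT level of the lower position 4 peaks (chromosome 1, 82895063 to 82895098, plus strand). It had 852, 1165 and 1183 CPM in WT and 208, 284 and 114 CPM in KO. KO was thus lower, with a log2 change of -2.29 ± 0.36 (SE) and an adjusted p of 0.000249. No other peak of Agfg1 was tested.

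The peak annotated to the 5′UTR of Tspan8, a tetraspanin of the cell surface, lay on chromosome 10, 115817336 to 115817378, plus strand (position 4). It had 536, 319 and 296 CPM in WT and 119, 114 and 0 CPM in KO. The log2 change was -2.09 ± 0.53 (SE) with an adjusted p of 0.00933.

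The CDS peak of Pcna, the sliding clamp of DNA replication, showed the smallest fall (position 4, chromosome 2, 132249841 to 132249876, minus strand). It had 1388, 846 and 690.3 CPM in WT and 446, 322 and 380.4 CPM in KO. Its log2 change was -1.37 ± 0.35 (SE), adjusted p 0.0097. The 3 other tested peaks of Pcna were not called, with a median of -0.05, and without KO library 12 the Pcna peak itself was not called (adjusted p 0.0522; 0.00351 to 0.0362 in the other alternatives).

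The only lower peak at position 2 lay in the CDS of Slc4a1, which encodes band 3, the anion exchanger of the red cell membrane (chromosome 11, 102350301 to 102350358, minus strand). It had 876, 1006 and 690.3 CPM in WT and 208, 417 and 228 CPM in KO. The log2 change was -1.53 ± 0.35 (SE) with an adjusted p of 0.00412. Slc4a1 is among the erythroid markers whose summed share was lower in KO. Of its 23 other tested peaks 6 were lower, and the median of the 23 was -0.44. All of the 6 but the CDS peak at 102356380 to 102356408 held a miR-144-3p code. Some Slc4a1 peaks with such a code, as that at 102351447 to 102351500, were not called.

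**Figure D3:**
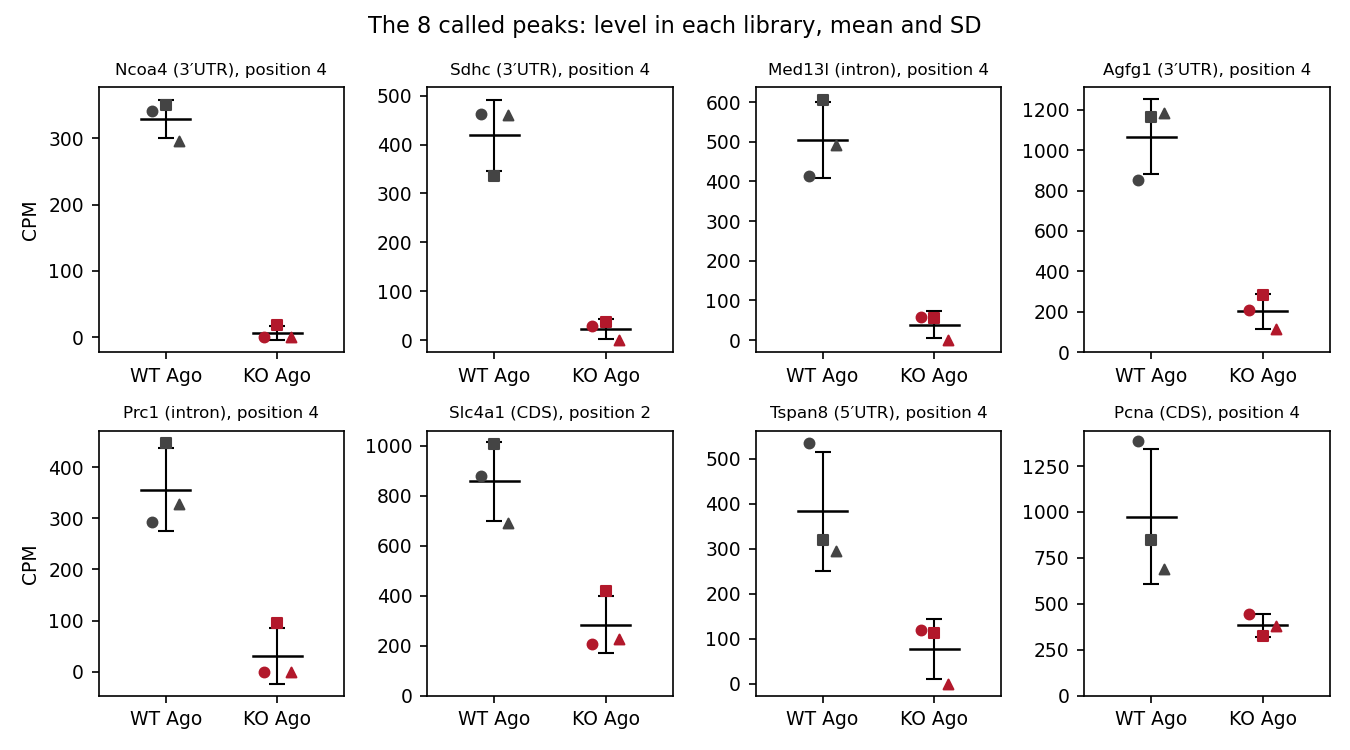
Level of the 8 lower peaks (CPM, linear axes) in each WT Ago library (grey; circle 1, square 9, triangle 10) and KO Ago library (red; circle 3, square 12, triangle 13), with the mean and SD of each group (n = 3). In every panel all KO points lie below all WT points, and KO levels reach 0 in Ncoa4, Sdhc, Med13l, Prc1 and Tspan8.

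To set a peak against its own transcript, its change was compared with that of its gene (diffSpliceDGE in edgeR, 1398 peaks tested). The change of the gene was fitted over all its tested peaks, the peak itself included. A difference is therefore smaller than one from the other peaks alone. The difference was -4.56 log2 for Ncoa4 (adjusted p 0.000218), -3.17 for Sdhc (0.000588) and -3.22 for Med13l (0.000161), and these 3 peaks fell relative to their genes. For Prc1 it was -1.62 (0.0636), for Slc4a1 -0.87 (0.147) and for Pcna -0.82 (0.183), and none of those 3 differed from its gene at the threshold. Agfg1 and Tspan8 had no other tested peak. The background was 8.51% of tested peaks lower and 3.86% higher than their genes. These 6 peaks were chosen by their fall in the same libraries, so their count cannot be set against that background. Among the other peaks of the 3 mismatch positions that could be compared, only 1 in Ank1 passed the threshold. A position 4 peak in an intron of Ank1, which encodes the ankyrin that anchors the red cell skeleton, was higher than its gene, by 1.77 log2 (adjusted p 0.00694). Its own log2 change was 0.59 and not called, and 1 of the 2 other tested Ank1 peaks was lower, at -2.38. That lower peak lay in the CDS, with a mean of 2278 CPM in WT. It held a miR-451a match of 6 bases or more and a miR-144-3p code. The remaining Ank1 peak had a log2 change of -0.16 and was not called. The change of the gene was fitted over these peaks too.

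**Figure D4:**
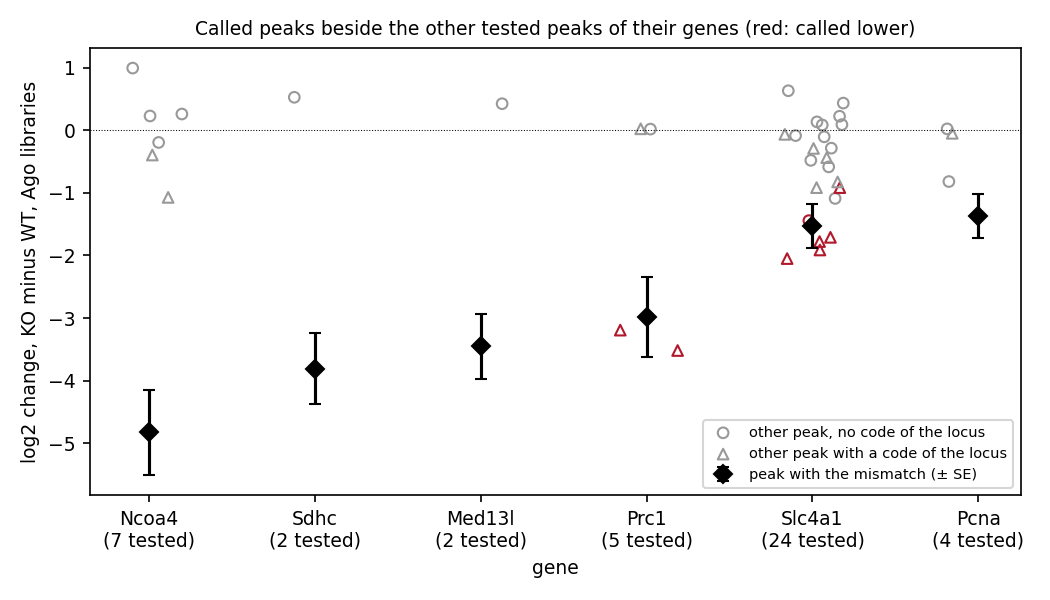
Log2 change, KO minus WT, of the lower peaks (black diamonds, ± SE) and of the other tested peaks of the same gene (open circles without and open triangles with a code of the locus; red if called lower) for the 6 genes with more than 1 tested peak. The diamonds of Ncoa4, Sdhc and Med13l lie far below the other peaks of their genes, whereas those of Prc1 and Slc4a1 lie among other lower peaks.

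The well-covered peaks that were not called are given next; a call missed does not show that a peak did not change. At position 2 the highest level was that of the intronic peak of Cdk8, the Mediator kinase, with 1655, 1421 and 3057 CPM in WT and 3387, 2066 and 2967 CPM in KO (log2 0.47 ± 0.37 SE, adjusted p 0.471). This peak had more reads in IgG than in Ago: against WT IgG the Ago level was lower by 1.33 on the log2 scale (adjusted p 0.00296). An intergenic peak on chromosome 1 also had many IgG reads (117 in WT and 160 in KO) and a log2 change of 0.36. The CDS peak of Fkbp2, a prolyl isomerase of the endoplasmic reticulum, had a log2 change of 0.54. Summed over all 12 libraries, its differences in reads from a peak in Elk4 came to at most 10% of its reads. The same reads may thus have been counted at both places.

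At position 3 the most abundant peak lay in the CDS of Tubb5, a beta-tubulin, with 949, 782 and 362 CPM in WT and 386, 322 and 304 CPM in KO. WT library 10 lay within the KO range, and the log2 change of -1.07 ± 0.37 (SE) had an adjusted p of 0.06. Without WT library 10 the peak was called lower, and in the authors' deposited table it was lower too (log2 -1.41, FDR 0.0148). In the 3′UTR of Slc25a37, whose product mitoferrin brings iron into mitochondria, the peak stood at 633, 702 and 559 CPM in WT and 238, 626 and 571 CPM in KO (log2 -0.39, not called), and it also holds a match to miR-16. Eif3c, a subunit of an initiation factor of translation, had in its CDS peak a log2 change of 0.14. In Klf1, a master transcription factor of red cells, the CDS peak had 536, 527 and 362 CPM in WT and 446, 341 and 380.4 CPM in KO (log2 -0.32, not called). A 3′UTR peak of Ccna2, cyclin A2, with an 8-base match to miR-16, had a log2 change of -0.30. The 3′UTR peak of Ago2, the protein that makes miR-451a, had 170.4, 223 and 131 CPM in WT and 297, 322 and 266 CPM in KO. Every KO library was above every WT library, but the log2 change of 0.70 ± 0.38 (SE) was not called (adjusted p 0.273). Its reads in each library were identical to those of an intergenic peak on chromosome X that is also coded for position 3, so they cannot be assigned to Ago2 alone.

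At position 4 the uncalled peaks of high WT level included those of Lmo2 and Gm5814. The 5′UTR peak of Lmo2, an adaptor in the red cell transcription factor complex, had 852, 399 and 460.2 CPM in WT and 356, 246 and 304 CPM in KO. Its groups did not overlap, and its log2 change of -0.92 ± 0.39 (SE) had an adjusted p of 0.129. A peak downstream of Gm5814 had a log2 change of 0.33. The 3′UTR peak of Pim1, a kinase induced by cytokines, had a log2 change of -0.82 (adjusted p 0.212) and the same reads as an intergenic peak on chromosome 6; without WT library 1 it was called lower. The CDS peaks of Kifc1 and Kifc5b, near-identical kinesin genes, had identical reads and a log2 change of -0.52. In all, 6 of the 46 tested peaks shared identical reads in pairs, and the 46 held 43 distinct sets of counts.

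By gene list, 29 of the 1605 peaks lay in 15 erythroid genes, 7 of them were tested and 1, that of Slc4a1, was lower (median log2 -0.39). All tested peaks of the erythroid list had 56 of 205 lower, 2 higher and a median of -0.46. Of the cell cycle and mitosis genes 2 peaks were tested, Prc1 and Ccna2, and 1 was lower, against 16 of 48 for the list's tested peaks. Of the Argonaute and microRNA pathway only the Ago2 peak was tested. Of the hepatocyte markers the peaks in Ahsg and Apoa1 were tested; their log2 changes were 1.11 and 0.39 and neither was called, and none of the list's 92 tested peaks was called. For these 92 the median was 0.41. The genes reported in the literature as miR-451a targets had 4 of the peaks, in 3 genes, and none was tested; over that list as a whole 4 of 9 tested peaks were lower. None of the peaks lay in macrophage, megakaryocyte or progenitor markers, and the 4 in granulocyte markers were not tested.

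Most of the peaks had too few reads for a test of their own, and their summed reads are given as ratios of WT to KO Ago reads scaled to library size. The intervals are exact binomial 95% intervals and cover counting error only, and reads without molecular identifiers are not independent molecules. The 1559 untested peaks had 13894 WT and 8357 KO reads, a ratio of 1.21 (1.18 to 1.24), against 1.01 for all untested peaks. By position the ratio was 1.36 (1.29 to 1.44) at position 2, 1.07 (1.02 to 1.13) at position 3 and 1.23 (1.18 to 1.28) at position 4. In CPM, the untested position 2 peaks summed to 3818, 3678 and 3416 in WT and 2741, 2782 and 2433 in KO, without overlap. Position 3 had 4151, 4187 and 4012 in WT and 3642, 3961 and 3940 in KO, with all KO libraries just below all WT ones. Position 4 had 6928, 7272 and 5880 in WT and 5377, 5802 and 5386 in KO. No KO read at all was found in 9.02% of the untested peaks at position 2, 4.19% at position 3 and 8.21% at position 4, against 6.56% of all untested peaks. Position 2 had the highest ratio of the 3 in its 388 untested peaks.

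When the read filter was dropped, all 1605 peaks entered the fit with the rest of the map. In that fit 60 were lower (3.74%) and 1 higher, against a background of 2.54% lower and 0.0329% higher over 106381 peaks. Position 2 gave 21 lower (5.32%, median log2 -0.62), position 3 gave 9 (1.83%, -0.25) and position 4 gave 30 (4.17%, -0.49). The median of all peaks in this fit was -0.17. For comparison, mismatches at positions 5, 6 and 7 gave 6.41%, 4.92% and 20.4% lower. The 8 lower peaks of the filtered fit were among the 60, and 19 of the 60 had no KO read. The 60 lay in 55 genes. In CDS there were 33 (55%), against 34.8% of all lower peaks of this fit and 48.7% of the 1605. In 3′UTRs there were 17, against 25.2% and 27.2%. A miR-144-5p code was held by 7 (11.6% of the 1605) and a miR-16 match of 7 bases or more by none (2.68% of the 1605).

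Examples of these sparse peaks, chosen after their values were seen, are those in genes with the smallest p-values at each position among peaks that the filtered fit did not test. At position 2, the CDS peak of Smu1, a splicing factor, had 11, 17 and 7 reads in WT libraries 1, 9 and 10 and none in KO, at least 10.4-fold more in WT (with the KO group set to 3 reads). The CDS peak of Ppm1b, a protein phosphatase, had 16, 17 and 5 reads in WT and 1, 1 and 0 in KO, a ratio of 16.9 (4.37 to 145). Mcm6, a subunit of the replicative helicase, had in its CDS peak 10, 23 and 5 reads in WT and 0, 1 and 2 in KO. In all 3 the WT and KO libraries did not overlap, which is no separate evidence because p-values from these libraries chose them.

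At position 3, Urod, an enzyme of haem synthesis, had 15, 10 and 8 reads in WT and 1, 0 and 0 in KO in its CDS peak, a ratio of 29.4 (4.92 to 1196). In Brpf3, a scaffold of histone acetyltransferases, the CDS peak had 20, 9 and 9 reads in WT and 1, 0 and 1 in KO. Sgk3, a kinase related to Akt, had a lower peak at each of 2 positions. Its CDS peak at position 2 had 7, 7 and 2 reads in WT and none in KO, and its 3′UTR peak at position 3 had 9, 9 and 6 in WT and 0, 1 and 0 in KO. At position 3 the 9 lower peaks of this fit had at most 3 KO reads, although none of the 14 peaks tested with the filter was called.

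At position 4, the CDS peak of Tfrc, the transferrin receptor, had 7, 60 and 14 reads in WT and 3, 3 and 2 in KO, so most of its WT reads came from library 9. The 3′UTR peak of Abi1, an actin regulator, had 18, 24 and 8 reads in WT and 3, 1 and 1 in KO. In Clasp2, a microtubule-binding protein, the CDS peak had 8, 9 and 4 reads in WT and none in KO, at least 6.23-fold more in WT. The single higher peak, intergenic on chromosome 11 (position 3), had 1, 2 and 1 reads in WT and 7, 9 and 6 in KO, with 1 IgG read in all. The lower peaks in Sarnp and Gm6563 had identical reads.

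**Figure D5:**
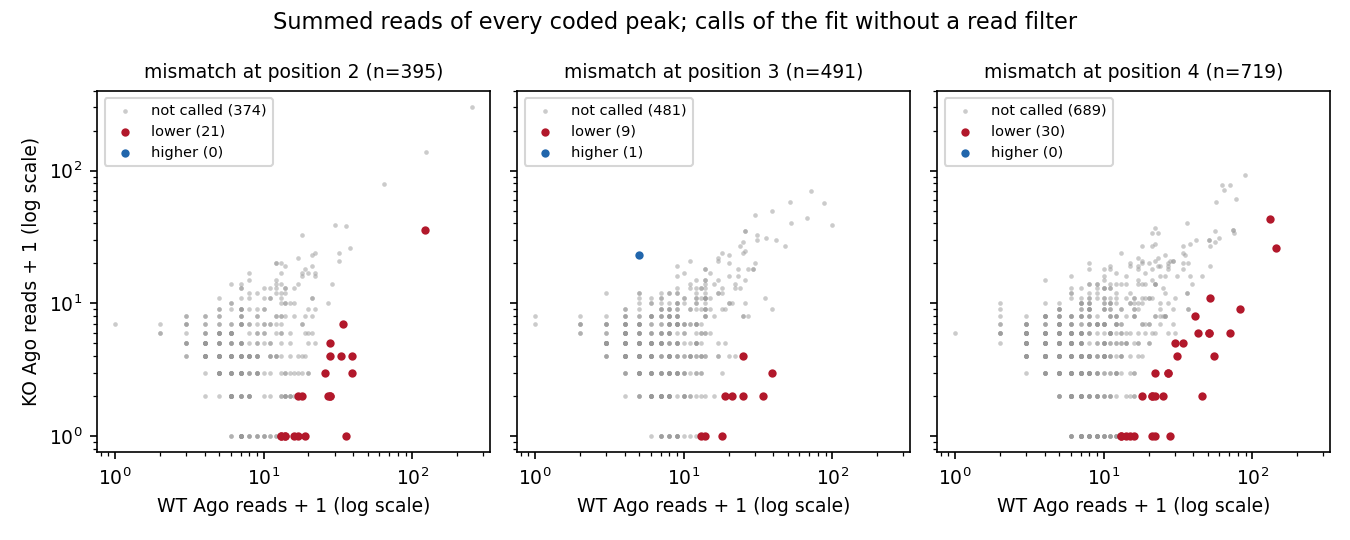
Summed KO Ago reads plus 1 against summed WT Ago reads plus 1 (both axes logarithmic) for all 1605 peaks, by mismatch position; colours give the call of the fit without a read filter. Red (lower) peaks number 21, 9 and 30 at positions 2, 3 and 4, and the row at the bottom holds peaks with no KO read.

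The authors' deposited table of differential peaks listed 109 of the 1605 peaks. It called 52 of them lower (FDR under 0.05) and 2 higher, against 35.7% lower and 1.29% higher over its 6651 peaks. By position, 18 of 26 were lower at position 2, 5 of 23 at position 3 and 29 of 60 at position 4. In the authors' deposited table the lowest coverage height over the Ago libraries of a genotype, taken in the genotype where it was larger, was at least 3 for every listed peak, so a peak high in 1 genotype alone could enter it. Of the 109, 20 were also tested here. The authors' deposited table called 7 of those lower, and 3 of the 7 (Sdhc, Med13l and Tspan8) were lower here too; Tubb5, Etnk1, E2f2 and the intergenic peak on chromosome 6 were not called here. Smu1 stood at a log2 change of -4.73 (FDR 2.98e-06) in the authors' deposited table.

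Against control IgG, 12 of the peaks were tested in WT, with 6 higher and 5 lower in Ago (background 35.9% higher and 37.9% lower). The higher ones included those of Slc4a1 (log2 3.63), Agfg1 (4.22), Pcna (4.08), Slc25a37 (4.40) and Tubb5 (3.35), and the lower ones included Cdk8. Without any 1 WT Ago library 5 were tested and none was higher. Over all peaks 47 of 240, 50 of 246 and 49 of 241 were higher without WT Ago library 1, 9 and 10. Without WT IgG library 2, 6 or 11 there were 27 of 39, 24 of 45 and 23 of 42 higher. All tested peaks then had 1081 of 2602, 893 of 2878 and 870 of 3024 higher. Ncoa4 had no IgG read, Sdhc had 3, all in WT, and Med13l had 5 in WT and 1 in KO. These 3 peaks did not pass the read filter of the comparison with IgG. In KO 6 were tested, with 1 higher, Gm5814 at 6.02, and 2 lower (background 40% higher and 23.3% lower). Without any 1 KO Ago library 5 were tested and none was higher. Over all peaks 59 of 315, 56 of 316 and 46 of 308 were higher without KO Ago library 3, 12 and 13. Without KO IgG library 4, 8 or 14 there were 14 of 22, 10 of 21 and 10 of 23 higher. All tested peaks then had 697 of 1883, 493 of 1838 and 545 of 1930 higher. Between the genotypes' IgG libraries 5 of the peaks were tested and none was called by edgeR, DESeq2 or limma-voom. Over all 190 peaks tested there the share called was 0%, with 2 lower and none higher at unadjusted p under 0.05.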

How the data were processed

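The deposited tables were used as the authors left them. Reads were trimmed, aligned to mm10 and counted over peaks with cutadapt, STAR and bedtools, and limma was used, per the submitters' processing notes; no source used here gives their versions. The deposited count table holds whole-number read counts per peak for 12 libraries. The authors' match codes and peak annotation are scores and labels in the deposited tables, read as match kinds and checked against RefSeq windows. In the deposited tables the authors give peak height as a signal, an IgG-to-Ago ratio per peak, and, in the table of differential peaks, log2 fold changes with p-values and FDR.

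Counts were tested with edgeR 4.0.16 (quasi-likelihood, TMM scaling, filterByExpr with a minimum count of 10 and total of 15) in R 4.3.3, on the libraries of the 2 groups compared, with Benjamini-Hochberg adjustment over all tested peaks. Alternatives were DESeq2 1.42.0, limma-voom (limma 3.58.1), other scalings, no filter and leaving out each library. On simulated counts for WT against KO Ago, the read filter retained 23 of 50 4-fold falls and 23 of 50 2-fold falls. Of the retained falls, 21 of 23 4-fold ones (91.3%) but 2 of 23 2-fold ones (8.7%) were called over 1928 tested peaks. Named peaks were all called ones, the 3 uncalled ones of highest WT level at each position and the tested ones in the gene lists; others are named as chosen after their values were seen. A peak that this rule names is not reported here. The peaks and lists were chosen with earlier results of these data known. The comparison within genes was added after seeing the data.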

Additional observations from a re-analysis of the deposited data

How the results depend on the processing

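The count of 8 lower peaks was the same with DESeq2, limma-voom, library-size and RLE scaling, without peaks that hold a miR-144-5p code, with identical peaks counted once and without peaks of high IgG ratio. Leaving out 1 library gave 5 to 23 lower peaks, in place of 8 of 46. They were 5 of 36 tested without WT library 9 and 7 of 38 without KO library 12. Without WT library 1 they were 8 of 37 (4 of them among the 8). They were 18 of 86 without WT library 10, 19 of 90 without KO library 13 and 23 of 91 without KO library 3. At positions 2, 3 and 4 the ranges were 1 to 4, 0 to 2 and 4 to 17 lower peaks; for higher peaks the range was 0 to 1 over all and at position 3. Without a read filter there were 60 lower peaks (21, 9 and 30 by position) and 1 higher, at position 3; with the peaks of the authors' table alone there were 4 lower (0, 1 and 3). Over all peaks lower calls were 2704 of 106381 without a filter. Without 1 library they went from 304 of 2148 (WT library 1 left out) to 986 of 4836 (KO library 3 left out). Higher calls over all peaks were 7 with DESeq2, 69 with library size and 3 to 54 without 1 library. Library-size scaling moved the median log2 change of all peaks from 0.09 to 0.25. Peaks above IgG were 98 of 1602 in WT and 40 of 1501 in KO without a filter. Over all peaks these counts were 4303 of 105995 and 1865 of 100439. Without 1 library the peaks above IgG were 0 to 27 in WT and 0 to 14 in KO, with the numbers tested given above. The cause of these differences was not tested beyond the number of peaks tested. No paired analysis was possible because the libraries of the groups share no number in the labels. Depth limits the tests to 2.87% of the peaks.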
